A study of Mus musculus with 12 samples.

Results

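The comparison described here set NF-kB1-deficient against wild-type cells, both taken under imiquimod cream. It used 6 of the series' 12 libraries: 3 from wild-type and 3 from NF-kB1-deficient C57BL/6 mice. The cells were Vg4+Vd4+ gamma delta T cells, that is, T cells that carry a given gamma and a given delta receptor chain, from lymph nodes that drain the skin. The other 6 libraries came from the same cells of wild-type and NF-kB1-deficient mice given sham cream, 3 each, and served for the shared estimate of spread and for comparison. All mice were of the same named strain, and the labels give neither their age and sex, nor the allele behind the NF-kB1 deficiency, nor whether animals were pooled. Expression was read by 3' tag sequencing with the QuantSeq FWD kit, which gives reads from the 3' end of polyadenylated transcripts. Values are normalized read counts per gene on a linear scale, called normalized values from here on. Of 45796 genes in the table, 9732 were above 0 in any library, and the 1571 whose normalized values averaged 5 or more across all 12 libraries were tested. Cdk17 lay just inside that limit (mean 5.001) and Atp6v1a just outside (4.998). The labels do not tie the 3 libraries of a group to different animals, so the p-values cover only the spread among libraries, which may be technical.

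NF-kB1 is made as the precursor p105, which is processed to p50. The precursor holds other NF-kB subunits in the cytoplasm. The p50 subunit binds DNA at kB sites, as an activator when paired with a subunit that carries a transactivation domain and as a repressor when paired with itself. Imiquimod is an agonist of Toll-like receptor 7, and applied as a cream to mouse skin it sets off inflammation like that of psoriasis, in which gamma delta T cells of the draining nodes are activated, divide and make IL-17. In lymph nodes, gamma delta T cells that carry CD27 are known to lean towards interferon gamma, and those without it towards IL-17.

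The 2 genotypes differed in depth. Judged from the steps of low values, the wild-type imiquimod libraries held 35154, 35611 and 20507 gene reads and the NF-kB1-deficient ones 67042, 45957 and 51153, so every NF-kB1-deficient library was the deeper. Among the 1571 tested genes, 17.7% of the wild-type and 8.27% of the NF-kB1-deficient values were listed at 0, against 13.3% and 15.4% under sham. Summed normalized values were 36846 to 40618 in wild-type and 32104 to 33571 in NF-kB1-deficient imiquimod libraries. Depth moved with genotype in these 6 libraries, and its part in the results was tested only by raising all values to the value of 1 read in the shallowest library (1.98). With that floor 34 genes were called in place of 28, and 27 of the 28 were among them. The median 95% interval of a log2 fold change reached 2.21 to either side. In simulated data of this depth, with 1 dispersion for all genes, the test found 3 of 47 genes that had been changed 2-fold. It found 14 of 45 with a 4-fold and 36 of 43 with an 8-fold change, so smaller differences were mostly not detectable in such data.

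Markers of most other cell types were low, and the summed alpha beta T cell markers were mostly the locus Tcrb. B cell markers were at 0 in the 6 imiquimod libraries (12 of 12 genes), and Cd4 was too; summed markers of macrophages, monocytes and dendritic cells were 5.76, 17.7 and 21.8 in wild-type and 7.76, 0 and 15.6 in NF-kB1-deficient libraries, with 17 of 24 genes at 0 in all 6. Summed plasma cell markers were 23.8, 22.1 and 6.93 against 2.25, 4.89 and 21.7. The wild-type sums were mostly Prdm1 and Xbp1, which activated T cells also express. In NF-kB1-deficient replicate 3, Jchain was at 7.14 and Mzb1 at 4.54, both at 0 in all other libraries, beside Prdm1 at 5.51 and Xbp1 at 4.54. That library alone of the 6 also had values for H2-Aa (2.59), H2-Ab1 (5.19) and H2-Eb1 (4.54), among the macrophage, monocyte and dendritic cell markers. NK and innate lymphoid markers, nearly all of them Gata3 and Eomes, which T cells also express, summed to 3.67, 2.63 and 13.9 against 19.5, 23.8 and 5.19. Erythroid genes summed to 0, 3.68 and 1.98 against 4.76, 0 and 50.6 and were high in NF-kB1-deficient replicate 3 alone. Of the gamma delta T cell markers, the receptor delta locus Tcrd was present in all libraries, while the gene segment Tcrg-V4 was listed at 0 in all 12. Tcrb, the receptor beta locus, was at 82.3, 66.7 and 57.4 in wild-type and 80.9, 79.5 and 72.7 in NF-kB1-deficient imiquimod libraries, so it was present in each of them. The alpha beta T cell markers, with 6 of 11 genes at 0 in all 6 libraries, summed to 85.4, 71 and 60.6 in wild-type and 84.6, 85.8 and 90.3 in NF-kB1-deficient imiquimod libraries. Tcrb made up most of each sum. Tcra, the receptor alpha locus, was at 0, 3.16 and 1.17 against 2.2, 6.29 and 6.6, and Cd8b1 at 3.14, 0 and 1.98 against 1.5, 0 and 8.43. Whether alpha beta T cells were in the libraries was not tested. The gamma delta T cell markers summed to 49.99, 74.9 and 60.4 against 113, 92 and 117, without overlap. Of the 4 tested, 2 were positive and 2 negative, and Tcrd alone did not overlap, at 14.1, 30.5 and 19.8 against 62.8, 53.5 and 58.9. Cd163l1 went the other way, at 23.5, 15.8 and 0 against 0, 2.79 and 2.59. The part of the levels of all these cell type markers in the results was not tested. In bulk libraries, fewer cells of a type and less RNA per cell cannot be told apart.

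Nfkb1 itself (chromosome 3, 135584655 to 135691969, minus strand; positions here and below are those of GRCm38.p6, the build mm10) was at 7.34, 21 and 0 in wild-type and at 5.41, 6.64 and 5.84 in NF-kB1-deficient imiquimod libraries, and the groups overlapped. Its log2 fold change, NF-kB1 deficient minus wild type, was 0.29 ± 1.19 (SE; limma adjusted p = 0.94) and turned to -0.96 without wild-type imiquimod replicate 3. Where in the gene the allele lies is not in the labels, and 3' tags need not fall there, so the genotype labels are not checked by these values.

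Under imiquimod, the genes higher in NF-kB1-deficient than in wild-type cells included 3 of MHC class I, 2 of the type I interferon response and 6 known from resting T cells, among them Il7r, Bcl2 and Btg1. The nuclear noncoding RNA Malat1, the kinase gene Lck and the costimulatory receptor gene Cd27 were higher too. The lower genes included a tubulin (Tuba1b), nucleolin (Ncl), 3 genes of RNA-binding proteins and a cytosolic chaperone (Hsp90ab1). In all, 28 of 1571 genes (1.78%) were called at an adjusted p under 0.05, 20 higher (1.27%) and 8 lower (0.509%) in NF-kB1-deficient cells, and 225 had an unadjusted p under 0.05. The folds of the called genes ran from 1.16 to 3.70 on the log2 scale upwards and from 1.26 to 2.12 downwards. Of all 1571 tested genes, 844 had a positive and 727 a negative log2 fold change, to be set beside the list counts below. In 27 of the 28 the 3 wild-type and 3 NF-kB1-deficient libraries did not overlap, which was also so for 331 of all tested genes (21.1%). In the same fit 0 genes (0%) were called between genotypes under sham cream, with 96 at an unadjusted p under 0.05, and the groups did not overlap for 147 genes (9.36%).

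The number of calls leaned on the settings and on single libraries. It was 4 without NF-kB1-deficient imiquimod replicate 2, 9 without its replicate 3 and 10 without its replicate 1, and 18 without either wild-type imiquimod replicate 1 or NF-kB1-deficient sham replicate 1. Without limma's trend and robust options, 0 genes were called, with 217 at an unadjusted p under 0.05. A fit of the 6 imiquimod libraries alone called 17, of which 5 were higher and 12 lower. Only 12 of these 17 were among the 28, so the other calls of the 28 needed the sham libraries in the fit. Scaling all libraries to equal totals shifted the median log2 fold change of all tested genes from 0.13 by 0.18, and gave 25 higher and 5 lower. Malat1, Ms4a4b and H2-K1 stayed called whichever of the 12 libraries was left out, and 0 of the 28 genes changed direction in any of the 26 other settings.

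**Figure D1:**
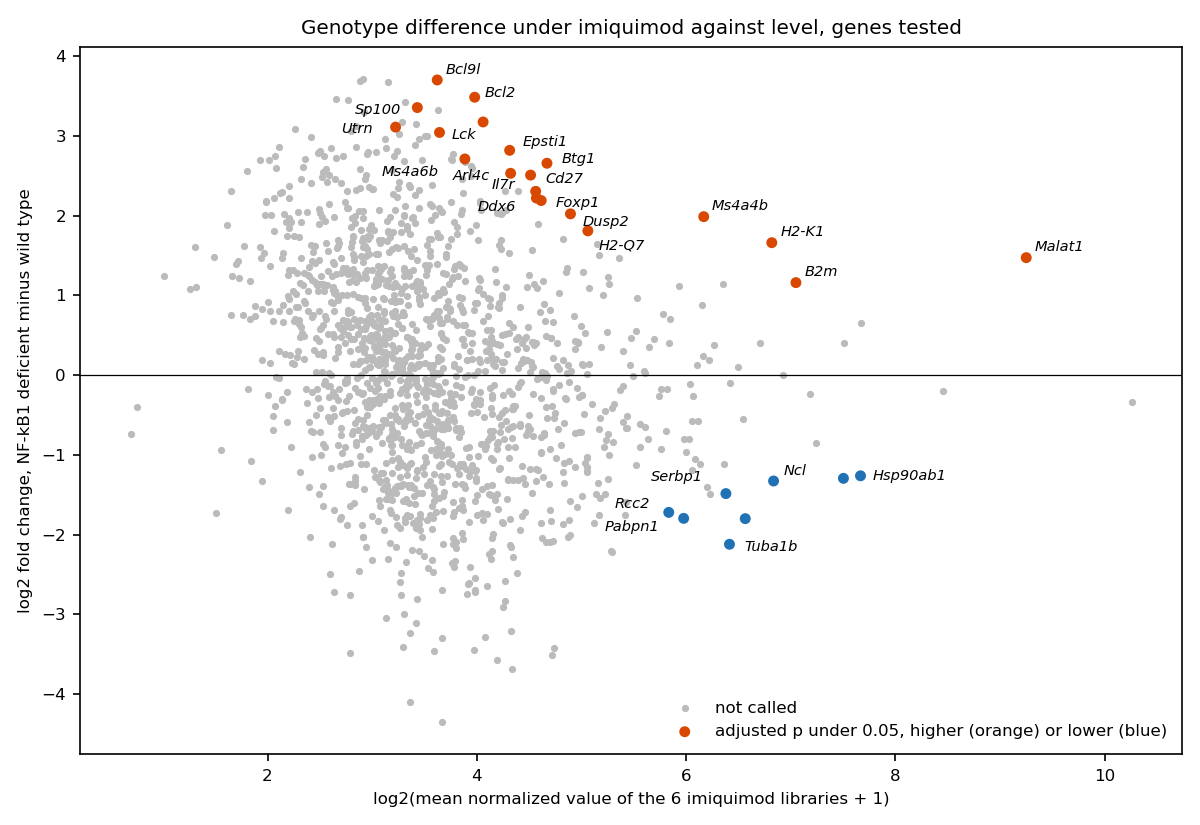
Each point is 1 of the 1571 tested genes, with its log2 mean normalized value over the 6 imiquimod libraries on the x axis and its log2 fold change, NF-kB1 deficient minus wild type under imiquimod, on the y axis. The 20 genes called higher are orange and the 8 called lower blue, and 25 of them are named; Malat1 is the most abundant of them, and the lower genes all lie at medium to high levels.

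MHC class I molecules present peptides from inside the cell and consist of a heavy chain and beta-2 microglobulin. Of 13 tested genes of MHC class I and peptide loading, 3 were called higher and 0 lower, 9 were positive, and their median log2 fold change was 0.69 against 0.13 for all tested genes. Under sham cream 10 of the 13 were positive with a median of 0.76 and 0 calls, and the summed values of the list stood apart there too, at 421 to 478 in wild-type and 523 to 592 in NF-kB1-deficient libraries, against 219 to 429 and 540.2 to 633 under imiquimod. H2-K1, a classical heavy chain (chromosome 17, 33996012 to 34000619, minus strand), was at 48.2, 80.9 and 37 in wild-type and 184, 159 and 163 in NF-kB1-deficient libraries, a log2 fold change of 1.66 ± 0.31 (SE; adjusted p = 0.000136). The lowest NF-kB1-deficient value was far above the highest wild-type one. For the genes that follow, values are given as wild type against NF-kB1 deficient, each in the order of replicates 1 to 3, and a ± within parentheses follows a log2 fold change. B2m, the beta-2 microglobulin gene (chromosome 2, 122147687 to 122153082, plus strand), was at 102, 72.7 and 68.7 against 215, 177 and 154 (1.16 ± 0.29, adjusted p = 0.0152). The non-classical heavy chain H2-Q7 (chromosome 17, 35439140 to 35443773, plus strand) was at 15.7, 6.32 and 21.8 against 36.6, 69.9 and 44.1 (1.81 ± 0.53, adjusted p = 0.0486). The call of H2-K1 held in all 12 fits that left out 1 library, that of B2m in 10 (highest adjusted p 0.159, without NF-kB1-deficient imiquimod replicate 1) and that of H2-Q7 in 3 (highest 0.379, without NF-kB1-deficient imiquimod replicate 2). The other heavy chain H2-D1 was at 45.1, 96.8 and 11.9 against 61, 69.2 and 56.1 (adjusted p = 0.518), and the peptide transporter genes Tap1 and Tap2 had log2 fold changes of 0.69 ± 1.1 and 1.86 ± 1.0 (adjusted p = 0.827 and 0.387). The loading chaperones did not share this sign: Pdia3 was at 49.3, 35.2 and 18.8 in wild-type and 3.51, 8.38 and 3.89 in NF-kB1-deficient libraries, without overlap but not called (adjusted p = 0.233). Reads of H2 heavy chains can be split between near-identical genes, so the share of each gene is uncertain. Values of parts of a read occurred for B2m in 12, for H2-K1 in 9 and for H2-Q7 in 2 of 12 libraries.

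The p50 subunit is also known as KBF1, a factor that binds an enhancer of MHC class I genes, and stretches of these promoters are shown because the called class I genes carry a kB-like motif there. They are RefSeq sequences of build GRCm38.p6 on the strand of the gene, with the motif in capitals, which is GGG and CC with any 5 bases between them. The stretches lie at chr17:34000419-34000488 (minus strand; H2-K1), chr17:35438992-35439061 (plus; H2-Q7) and chr2:122147530-122147599 (plus; B2m).
H2-K1: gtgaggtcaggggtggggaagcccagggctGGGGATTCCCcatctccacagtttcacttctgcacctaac
H2-Q7: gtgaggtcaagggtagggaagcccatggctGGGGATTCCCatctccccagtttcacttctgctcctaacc
B2m: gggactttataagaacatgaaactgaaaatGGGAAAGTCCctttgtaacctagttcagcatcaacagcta
The 2 heavy chain genes hold the same 10 letters, starting at -111 or -125 from the 2 starts of H2-K1 that have a promoter window and at -133 from that of H2-Q7. B2m holds a different form starting at -127. The H2-K1 stretch lies within the span given above for that gene, which reaches to 34000619. Further matches lie in these windows, among them GGGGAAGCCC (in lower case in the stretch shown) and GGGTCTCTCC for H2-K1 and GGGTCCAGCC for B2m. The letters GGGGATTCCC, chosen after they were seen in these genes, were in the windows of 34 of 27025 genes with a promoter window (0.126%) and of 4 of the 1262 tested genes that had one (0.317%). The loose motif, searched on both strands from 250 bases before to 50 after the start, is common and says little by itself: it was in 53.5% of all genes with a window, in 74.2% of tested genes, in 13 of 17 genes called higher that had a window (76.5%) and in 5 of 5 called lower. A match is a description of letters, and no binding was measured here.

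Interferon-response genes stood in the same direction. Of 18 tested genes of the type I interferon response, 17 were positive and 2 were called, both higher, with a median log2 fold change of 1.85. Summed over the list, normalized values were 149.8, 277 and 159 in wild-type and 479, 516 and 436 in NF-kB1-deficient imiquimod libraries, and 432 to 502 and 431 to 645 in the corresponding sham libraries. The wild-type imiquimod libraries thus lay below all 9 others. Sp100, a component of nuclear bodies (chromosome 1, 85649948 to 85709998, plus strand), was at 1.05, 0 and 1.98 in wild-type and 17.5, 26.2 and 12 in NF-kB1-deficient libraries (3.36 ± 0.93, adjusted p = 0.0339). Its wild-type values are at the level of a few reads, so the size of this fold is loosely fixed, and over the settings it ran from 1.35 to 4.84. The call of Sp100 held in 5 of the 12 fits without 1 library. Epsti1, an interferon-induced gene on no list, was also called, at 2.1, 23.2 and 0 against 27, 23.1 and 38 (2.82 ± 0.77, adjusted p = 0.029), and is the 1 called gene whose groups overlapped, through wild-type replicate 2. Irf1, an interferon-response transcription factor, was at 2.1, 7.37 and 1.98 against 31.5, 21.7 and 16.2 and did not pass (adjusted p = 0.107). Isg15 and Irf9, chosen after their values were seen, were listed at 0 in all 3 wild-type imiquimod libraries and at 7.11, 2.44 and 8.65 and 6.01, 4.89 and 1.95 in the NF-kB1-deficient ones, which at these depths is a matter of few reads (adjusted p = 0.376 and 0.42).

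Genes known from resting and naive T cells gave the most calls of any list. Of 32 tested, 30 were positive, 6 were called higher and 0 lower, and the median log2 fold change was 1.95. The lists share genes, and the calls of Btg1, Il7r and Bcl2 are counted again in lists below. Their summed values were 164, 341 and 224 in wild-type and 691, 774 and 620.3 in NF-kB1-deficient imiquimod libraries, against 679.5 to 777 and 790.5 to 824 under sham. Again the wild-type imiquimod libraries were the lowest of the 12. Btg1, an antiproliferative protein that speeds mRNA deadenylation (chromosome 10, 96617001 to 96622813, plus strand), was at 4.72, 7.37 and 5.94 in wild-type and 44.7, 36.7 and 47.4 in NF-kB1-deficient libraries (2.66 ± 0.60, adjusted p = 0.0051). Foxp1, a forkhead factor that keeps naive T cells quiescent (chromosome 6, 98925342 to 99522746, minus strand), was at 1.05, 13.7 and 16.8 against 28.8, 40.8 and 39.9 (2.19 ± 0.62, adjusted p = 0.0424). The list's members Pik3ip1, a brake on PI3 kinase, and Satb1, Elf4, Ikzf1 and Bach2, transcription factors of lymphocytes, had unadjusted p under 0.05 and did not pass: Pik3ip1 was at 1.05, 7.37 and 3.96 against 16.5, 29.4 and 27.9 (adjusted p = 0.117). The cell cycle inhibitor Cdkn1b (-0.32 ± 1.15) and the naive T cell factors Klf2 (0.03 ± 0.55) and Tcf7 (0.49 ± 0.97) had log2 fold changes near 0 for their error (adjusted p = 0.93, 0.985 and 0.851). Btg1 stayed called in 11 of the 12 fits without 1 library (highest adjusted p 0.0526, without NF-kB1-deficient imiquimod replicate 3) and Foxp1 in 6 (highest 0.371, without wild-type imiquimod replicate 1).

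Genes of survival through IL-7 were among them. Il7r, the IL-7 receptor alpha chain, on which resting T cells depend and which IL-17-producing gamma delta T cells carry at a high level (chromosome 15, 9506159 to 9529941, minus strand), was at 10.5, 11.6 and 1.98 in wild-type and 35.3, 48.5 and 27.9 in NF-kB1-deficient libraries (2.31 ± 0.67, adjusted p = 0.0459). Bcl2, the antiapoptotic protein that IL-7 is known to maintain (chromosome 1, 106538176 to 106714290, minus strand), was at 1.57, 5.26 and 0 against 27.9, 26.5 and 27.5 (3.48 ± 0.92, adjusted p = 0.0252). Within the NF-kB1-deficient group the 3 Bcl2 values lay closer together than those of any wild-type group. Of 17 tested cytokine receptor, SOCS and Bcl2 family genes, 15 were positive, these 2 were called, and the median was 1.25. The IL-21 receptor gene Il21r and the TGF-beta receptor gene Tgfbr2 had unadjusted p under 0.05 and did not pass (adjusted p = 0.153 and 0.199). Bcl2 stayed called in 8 of the 12 fits without 1 library (highest adjusted p 0.204, without NF-kB1-deficient imiquimod replicate 2) and Il7r in 4 (highest 0.327, without NF-kB1-deficient imiquimod replicate 2).

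**Figure D2:**
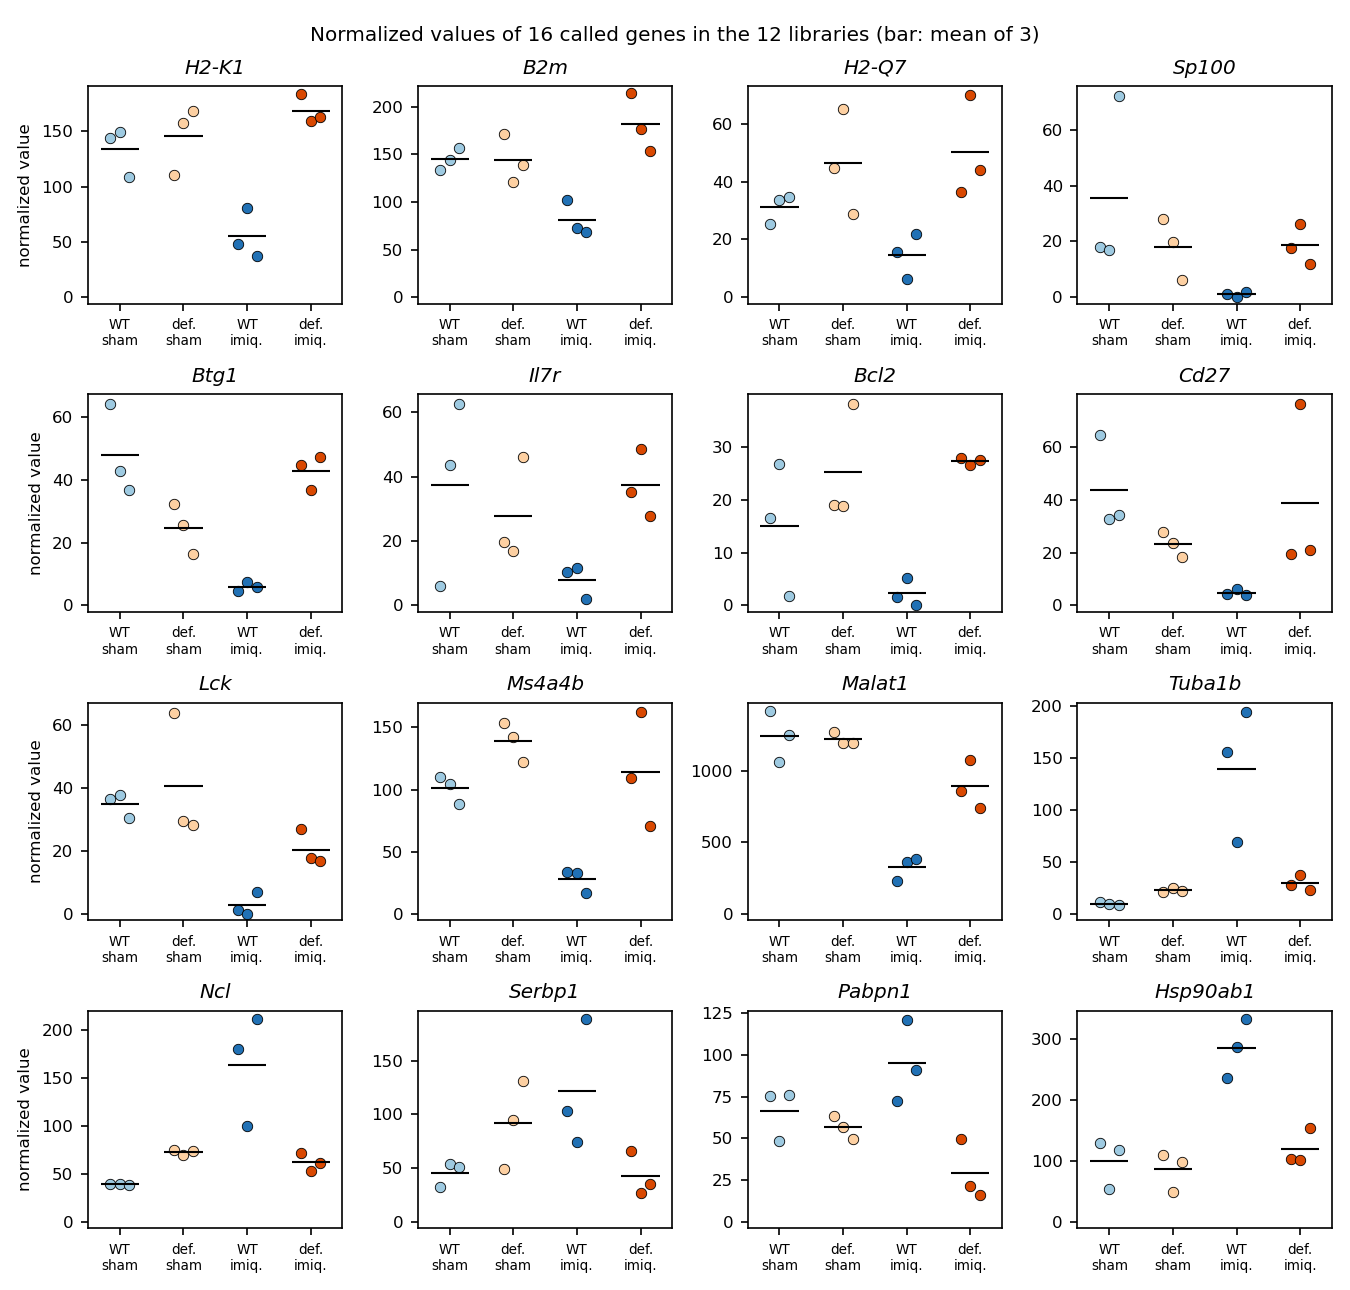
Normalized values of 16 called genes in every library, 1 panel a gene with its own linear y axis, by group on the x axis (WT wild type, def. NF-kB1 deficient, imiq. imiquimod); points are libraries and bars the mean of 3. For H2-K1, B2m, Btg1, Bcl2, Lck and Malat1 the 3 wild-type imiquimod points lie low, and for Tuba1b, Ncl and Hsp90ab1 high, with the NF-kB1-deficient imiquimod points apart from them in each panel.

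Genes of the T cell receptor and of its signalling differed unevenly. Lck, the kinase that starts receptor signalling (chromosome 4, 129548344 to 129573641, minus strand), was at 1.05, 0 and 6.93 in wild-type and 26.8, 17.6 and 16.6 in NF-kB1-deficient libraries (3.04 ± 0.76, adjusted p = 0.0152), and 1 wild-type library had no read of it. Of 23 tested genes of proximal signalling, 19 were positive, Lck alone was called, and the median was 1.12. Ptprc, which encodes the phosphatase CD45, was at 16.8, 22.1 and 9.9 against 39.6, 76.9 and 42.2 (adjusted p = 0.077), and the adaptor Skap1 at 3.14, 1.05 and 0 against 18.5, 16.1 and 12.6 (adjusted p = 0.147). Neither passed, although neither overlapped. Tcrd, the delta chain locus of the receptor that names these cells (chromosome 14, 53946073 to 54159198), was at 14.1, 30.5 and 19.8 in wild-type and 62.8, 53.5 and 58.9 in NF-kB1-deficient libraries, without overlap, and narrowly missed the threshold (1.46 ± 0.43, adjusted p = 0.051). Cd3d was at 0, 0 and 21.8 against 14.1, 9.08 and 37.6 (adjusted p = 0.185), and the gamma locus Tcrg-C2 was at 12.3, 22.3 and 18.8 against 22.4, 13.6 and 5.03 (adjusted p = 0.829), so the receptor chains did not share 1 sign. Lck stayed called in 9 of the 12 fits without 1 library (highest adjusted p 0.105, without NF-kB1-deficient imiquimod replicate 1).

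CD27 marks the gamma delta T cells that lean to interferon gamma. Cd27 (chromosome 6, 125232620 to 125237136, minus strand) was at 4.19, 6.32 and 3.96 in wild-type and 19.4, 76.1 and 21.1 in NF-kB1-deficient libraries (2.51 ± 0.66, adjusted p = 0.0249), with NF-kB1-deficient replicate 2 far above the other libraries. It stayed called in 11 of 12 fits; without that replicate its adjusted p was 0.398 and its log2 fold change 1.89. Of the 7 tested genes of the CD27 and type 1 cytotoxic list, 5 were positive and Cd27 alone was called, with a median of 2.04. Ly6c2, a surface protein of memory-like T cells, was at 0, 0 and 6.93 against 15.3, 14 and 32.1 (adjusted p = 0.101), and its neighbour Ly6c1 at 3.14, 0 and 0 against 6.89, 10.3 and 16.7 (adjusted p = 0.311); reads of these near-identical genes may be split between them. The list's cytokine itself, Ifng, was below the level needed for testing, at 0, 0 and 15.8 in wild-type and 0, 0 and 0 in NF-kB1-deficient libraries.

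The IL-17 side was thinly covered. Il17a, Il22 and Il1r1 were listed at 0 in all 12 libraries. Il17f was at 0, 6.32 and 33.7 in wild-type and 5.51, 0 and 5.51 in NF-kB1-deficient libraries, and Il23r at 0, 6.84 and 0 against 0, 0 and 0; neither reached the level needed for testing. Of 8 tested genes of the IL-17-producing program, 2 were positive and 6 negative with a median of -1.46, and the 1 called gene, Il7r, went the other way from the median. Among members with means of 20 or more, which are fewer, the median was 0.71. Under sham cream the median was -0.44, and the summed values of the list were 171 to 219 in wild-type and 124 to 129 in NF-kB1-deficient libraries, against 183 to 255 and 109 to 135 under imiquimod. The summed values were thus lower in all NF-kB1-deficient libraries under both creams, with no test of the sums. Cd44, an adhesion receptor high on activated and IL-17-producing cells, was at 19.1, 22.1 and 53.5 in wild-type and 6.51, 0 and 8.43 in NF-kB1-deficient libraries, without overlap but not called (adjusted p = 0.203). The chemokine receptor Cxcr6 was at 36.7, 6.32 and 21.8 against 7.76, 0 and 9.08 (adjusted p = 0.336). Lgals1, the galectin of activated T cells, was at 38.8, 41.6 and 62.4 against 3.51, 2.79 and 3.24 and did not pass either (adjusted p = 0.101), although all wild-type values lay far above all NF-kB1-deficient ones.

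Genes of NF-kB itself gave no call. Of 5 tested subunits and inhibitors 4 were positive, and of 11 tested feedback and target genes 9 were, with medians of 0.37 and 1.63; the first turned to -0.08 with a pseudocount of 10. Nfkbia, the inhibitor IkB alpha that NF-kB induces (chromosome 12, 55489409 to 55492647, minus strand), was at 20.4, 22.6 and 25.7 in wild-type and 67.2, 47.5 and 31.8 in NF-kB1-deficient libraries, without overlap and not called (1.0 ± 0.48, adjusted p = 0.314). The deubiquitinase Cyld was at 15.6, 38.9 and 25.9 against 2.0, 14.7 and 23.4 (adjusted p = 0.526). The subunits Nfkb2, Rel, Rela and Relb and the regulators Nfkbiz and Tnfaip3 stayed below the level needed for testing. Tnfaip3, which encodes the inhibitor A20, was at 0, 0 and 3.96 in wild-type and 7.01, 6.64 and 18.8 in NF-kB1-deficient libraries, Relb at 0, 0 and 21.8 against 0, 5.24 and 0, and Rel at 0 in all 6.

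The immediate early list held 2 calls among 17 tested genes, 16 of them positive, with a median of 1.51 (1.30 without the 2 genes at 0 in a whole group). Those were Btg1 and Dusp2, a nuclear MAP kinase phosphatase (chromosome 2, 127336159 to 127338377, plus strand), which was at 5.24, 18.9 and 9.9 in wild-type and 30.04, 65 and 43.5 in NF-kB1-deficient libraries (2.02 ± 0.58, adjusted p = 0.0424). Its wild-type and NF-kB1-deficient values did not overlap. Dusp2 stayed called in 4 of the 12 fits without 1 library (highest adjusted p 0.359, without NF-kB1-deficient imiquimod replicate 2).

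Malat1, an abundant nuclear long noncoding RNA (chromosome 19, 5795690 to 5802672, minus strand), gave the lowest p of all genes. It was at 229, 363 and 381 in wild-type and 859, 1075 and 742 in NF-kB1-deficient libraries (1.47 ± 0.18, adjusted p = 4.42e-11). The lowest NF-kB1-deficient library lay far above the highest wild-type one. Its adjusted p stayed at or below 3.31e-07 whichever library was left out, and was 0.323 without limma's trend and robust options. The other 7 tested long noncoding RNAs gave 0 calls; Kcnq1ot1, an imprinted antisense RNA, was at 4.19, 11.6 and 3.96 against 26.9, 19.2 and 38.1 (adjusted p = 0.158), and Snhg8 at 47.2, 15.8 and 12.9 against 36.3, 52.7 and 59 (adjusted p = 0.251). Both tested members of the Ms4a4 and Ms4a6 family of 4-span membrane proteins were called. Ms4a4b, which in T cells restrains division (chromosome 19, 11443558 to 11463549, plus strand), was at 33.5, 32.6 and 16.8 in wild-type and 109, 163 and 70.4 in NF-kB1-deficient libraries (1.99 ± 0.35, adjusted p = 6.4e-05), and Ms4a6b (chromosome 19, 11518559 to 11530403, plus strand) at 0, 12.6 and 1.98 against 23, 31.4 and 13.6 (2.71 ± 0.74, adjusted p = 0.029). The call of Ms4a4b held in all 12 fits without 1 library and that of Ms4a6b in 7 (highest adjusted p 0.319, without NF-kB1-deficient imiquimod replicate 2). Close relatives of Ms4a4b lie beside it and could share its reads.

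A further 4 genes were called higher. Ddx6, an RNA helicase of P-bodies that holds mRNAs back from translation (chromosome 9, 44602983 to 44640731, plus strand), was at 5.24, 11.6 and 5.94 in wild-type and 28.5, 48.2 and 37 in NF-kB1-deficient libraries (2.22 ± 0.62, adjusted p = 0.0339). Arl4c, a small GTPase (chromosome 1, 88698225 to 88702191, minus strand), was at 3.14, 7.9 and 3.96 against 24.8, 46.5 and 27.9 (2.53 ± 0.67, adjusted p = 0.0259). Bcl9l, a coactivator of beta-catenin (chromosome 9, 44482738 to 44511906, plus strand), was at 0, 0 and 3.96 against 23, 18.2 and 22.7 (3.7 ± 1.04, adjusted p = 0.0382), and Utrn, which encodes utrophin (chromosome 10, 12382187 to 12869888, minus strand), at 5.24, 0 and 0 against 14.8, 16.4 and 13.6 (3.11 ± 0.90, adjusted p = 0.0424). These last folds rest on 2 wild-type libraries listed at 0 each and depend on the pseudocount. The calls of Ddx6, Arl4c, Bcl9l and Utrn held in 7, 8, 5 and 3 of the 12 fits without 1 library, and the highest adjusted p, without NF-kB1-deficient imiquimod replicate 2 in each case, were 0.319, 0.319, 0.204 and 0.319.

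Among the genes lower in NF-kB1-deficient cells were several of growth and division. Tuba1b, an alpha tubulin that dividing cells make in quantity (chromosome 15, 98931429 to 98934390, minus strand), was at 156, 68.6 and 194 in wild-type and 28, 37 and 22.5 in NF-kB1-deficient libraries (-2.12 ± 0.53, adjusted p = 0.0152). Ncl, the nucleolar protein nucleolin needed for ribosome production (chromosome 1, 86344719 to 86359455, minus strand), was at 180.4, 100.2 and 212 against 72.4, 53.4 and 61.1 (-1.33 ± 0.36, adjusted p = 0.029). Rcc2, a protein of chromosome segregation and cell spreading (chromosome 4, 140701473 to 140723220, plus strand), was at 75.5, 40 and 149.5 against 34.6, 16.1 and 20.8 (-1.72 ± 0.49, adjusted p = 0.0424). The calls of Tuba1b, Ncl and Rcc2 held in 7, 7 and 6 of the 12 fits without 1 library (highest adjusted p 0.12, without NF-kB1-deficient imiquimod replicate 3; 0.319 and 0.319, without NF-kB1-deficient imiquimod replicate 2). Genes of the tubulin and stathmin list were of mixed sign: of 9 tested 4 were positive and 5, Tuba1b included, negative. The list, with Tuba1b in it, summed to 232 to 353 in wild-type and 123 to 146 in NF-kB1-deficient imiquimod libraries. The tubulin-binding gene Mapre1 went the other way, at 0, 6.32 and 0 against 20.9, 21.8 and 9.08 (adjusted p = 0.126). Reads of near-identical alpha tubulins can be split between genes.

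The lists of DNA replication, histone variants and ribosome biogenesis had negative medians with 1 call among them. Of 10 tested replication genes 9 were negative (median -1.80), of 14 genes of histone variants and HMG proteins 13 were (median -1.69) and of 15 genes of ribosome biogenesis, Myc and mTORC1 12 were (median -1.17), with Ncl the 1 call in the last. Their summed values did not overlap between the genotypes: replication genes summed to 388, 196 and 372 in wild-type and 150.2, 47.9 and 129 in NF-kB1-deficient imiquimod libraries. For histone variants and HMG proteins the sums were 520.4, 429.9 and 592 against 275, 157 and 207, and for ribosome biogenesis 709, 583 and 889 against 323, 199 and 283. In these 3 lists the wild-type imiquimod libraries were the highest of the 12. The wild-type sham sums were 33.5 to 104, 191 to 209.8 and 189 to 199.9. Those of NF-kB1-deficient sham libraries were 34.6 to 129, 188 to 248 and 243 to 335. For ribosome biogenesis the NF-kB1-deficient sums were thus the higher under sham, without overlap. Lig1, the ligase that joins Okazaki fragments, was at 50.3, 14.7 and 31.7 in wild-type and 5.51, 1.4 and 0 in NF-kB1-deficient libraries (adjusted p = 0.153). The replicative helicase subunit Mcm5 was at 27.3, 5.26 and 67.3 against 14.5, 0 and 0 (adjusted p = 0.219). Of mitotic genes, Birc5, which encodes survivin, was at 30.4, 33.7 and 41.6 against 1.5, 0 and 7.78 (adjusted p = 0.152), while the condensin gene Smc4 was at 30.8, 26 and 59.6 against 61.2, 93.5 and 89.8 (adjusted p = 0.147), the other way round. The mitosis list (10 tested, 7 negative, median -1.39) turned to 1.12 with a mean of at least 20, where few members remain. Hells, a chromatin remodeller of dividing cells chosen after its values were seen, was at 41.9, 20 and 8.36 in wild-type and 0 in all 3 NF-kB1-deficient imiquimod libraries (adjusted p = 0.101). Npm1, nucleophosmin, was at 74.9, 104 and 142 against 34.6, 40.2 and 41.2, and Ptma, prothymosin alpha, at 74.5, 64.8 and 195 against 43.4, 20.2 and 46.1 (adjusted p = 0.163 and 0.0752).

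**Figure D3:**
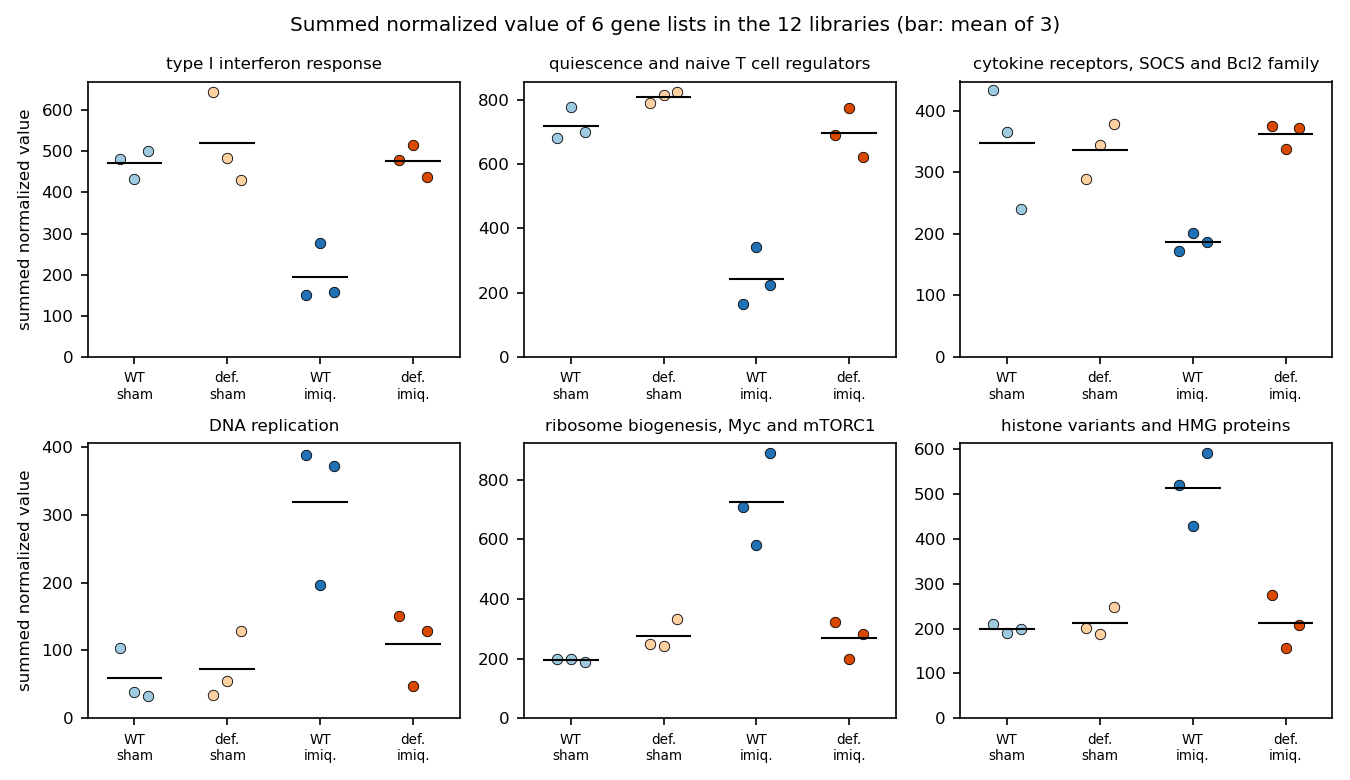
Summed normalized value of all measured members of 6 gene lists in each of the 12 libraries (linear y axes from 0; x axis groups as labelled: WT wild type, def. NF-kB1 deficient, imiq. imiquimod); points are libraries and bars the mean of 3. In the upper 3 lists the wild-type imiquimod libraries are the lowest of the 12, and in the lower 3 the highest.

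RNA-binding proteins and a chaperone were among the remaining lower calls. Pabpn1, the nuclear poly(A)-binding protein (chromosome 14, 54894143 to 54898927, plus strand), was at 72.3, 121 and 91.1 in wild-type and 49.6, 21.7 and 16.2 in NF-kB1-deficient libraries (-1.8 ± 0.41, adjusted p = 0.00634), and Serbp1, an mRNA- and ribosome-binding protein (chromosome 6, 67266979 to 67289302, plus strand), at 103, 74.7 and 188 against 66.1, 26.5 and 35.7 (-1.48 ± 0.39, adjusted p = 0.0252). With Btg1 and Ddx6 higher and Pabpn1 and Serbp1 lower, the list of mRNA-binding and decay proteins held 4 calls among 20 tested, 2 in each direction, and a median of -0.14. Hsp90ab1, a cytosolic HSP90 chaperone (chromosome 17, 45567778 to 45573261, minus strand), was at 236, 287 and 332 against 104, 101 and 154 (-1.26 ± 0.31, adjusted p = 0.0124), without overlap. The calls of Pabpn1, Hsp90ab1 and Serbp1 held in 10, 10 and 9 of the 12 fits without 1 library, with highest adjusted p of 0.107, 0.141 and 0.319; the library left out was NF-kB1-deficient imiquimod replicate 3 for Pabpn1 and its replicate 2 for the rest. Pabpn1 overlaps another gene on its own strand, and values of parts of a read occurred for Hsp90ab1 in 11 of 12 libraries. Counting by strand is not given in the sources used here, so reads of overlapping genes cannot be told apart.

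Larger machineries of gene expression and metabolism had medians below that of all genes with few or no calls. Of all 1571 tested genes, 727 were negative. Of 50 tested splicing factors and hnRNPs 34 were negative, 1 was called lower, and the median was -0.71. Hnrnpk was at 43.5, 44.6 and 30.7 in wild-type and 8.76, 14.5 and 8.43 in NF-kB1-deficient libraries (adjusted p = 0.2), and Ptbp1, a splicing repressor, at 46.1, 59.5 and 29.7 against 15.7, 12.6 and 7.78 (adjusted p = 0.158). Neither overlapped between groups. Oxidative phosphorylation had 24 of 30 negative (median -0.81), proteasome 9 of 11 (-0.64), endoplasmic reticulum chaperones 13 of 19 (-0.77), cytosolic and mitochondrial chaperones 14 of 20 (-0.49) and translation factors 13 of 21 (-0.31), with Hsp90ab1 the 1 call among all of them. Cytosolic ribosomal proteins, 67 tested with 38 negative, had a median of -0.10 that turned to 0.11 with equal library totals, and 0 calls. Ldha, the lactate dehydrogenase of glycolysis, was at 48.2, 42.1 and 68.3 against 7.51, 15.4 and 21.4 (adjusted p = 0.126).

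Some lists pointed up without calls, beside 844 positive of all 1571 tested genes. Histone methyltransferases and chromatin repressors had 15 of 17 positive (median 0.98), with Nsd3 at 2.1, 0 and 0 in wild-type and 8.16, 31.3 and 12.1 in NF-kB1-deficient libraries (adjusted p = 0.101) and Kmt2a at 0, 3.16 and 0 against 10.5, 6.99 and 8.11 (adjusted p = 0.24). PI3 kinase subunits and brakes had 6 of 8 positive (median 1.17); Pik3cd, the leukocyte catalytic subunit, was at 11, 1.05 and 7.92 against 15.8, 58.7 and 25.9 (adjusted p = 0.0981). Homing receptors and integrins had 13 of 20 positive (median 0.66), with the gut homing receptor gene Ccr9 at 0, 11.6 and 3.96 against 18.5, 26.5 and 25.9 (adjusted p = 0.0898). None of these 4 genes overlapped between the groups, and each was at the level of a few reads in at least 1 wild-type library. For actin and actin-binding proteins (31 tested, 17 positive, 0 called) the median of 0.29 turned to -0.42 without wild-type imiquimod replicate 3. Actb was at 164, 201 and 213 against 123, 97 and 99.9 and was not called (-0.85 ± 0.29, adjusted p = 0.114), while Tmsb4x, which binds actin monomers, was at 136, 161 and 174 against 229.8, 223 and 290.3 (adjusted p = 0.189). Activation and effector surface markers had 9 of 12 negative (median -0.69) and 0 calls; this median turned to 0.31 with a mean of at least 20. The list's Ly6a, which interferon also induces, was at 14.7, 9.47 and 34.7 against 52.1, 48.2 and 49.9 (adjusted p = 0.164).

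**Figure D4:**
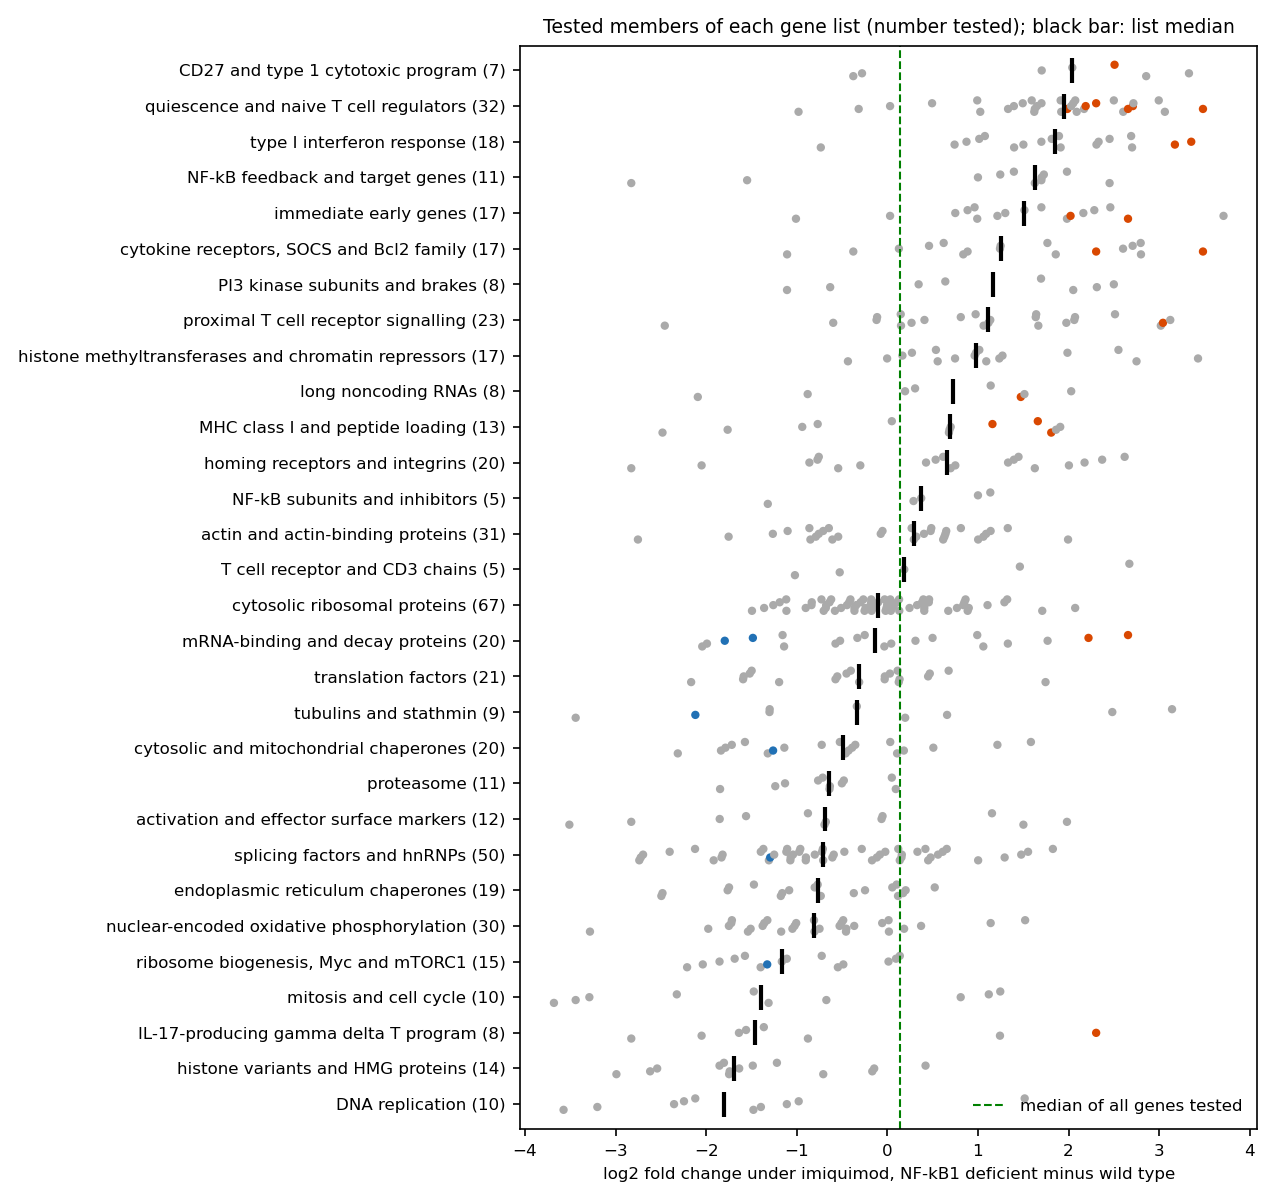
Log2 fold change of every tested member of each list with at least 5 tested members, NF-kB1 deficient minus wild type under imiquimod (x axis), 1 line a list with the number tested; orange and blue points are genes called higher and lower, black bars list medians and the dashed line the median of all tested genes (0.13). Lists of resting T cells and of interferon response lie to the right, and lists of replication, histone variants and HMG proteins, and ribosome biogenesis to the left.

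The same genotype difference was read under sham cream, in libraries that share no sample with the imiquimod comparison. For the 28 genes, the sham log2 fold changes ran from -0.94 to 1.26 and the lowest adjusted p was 0.809. H2-K1 was at 143, 149.6 and 108 in wild-type and 110.3, 158 and 169 in NF-kB1-deficient sham libraries, Sp100 at 17.9, 17.1 and 72 against 27.9, 19.7 and 6.29, and Bcl2 at 16.6, 26.7 and 1.86 against 18.9, 18.8 and 38. These groups overlapped. The difference between the 2 genotype effects was itself called for 7 of 1571 genes (0.446%), with 169 at an unadjusted p under 0.05. Of the 28, these were Malat1, Tuba1b, Serbp1, Ncl and Btg1; for the other 23 a difference between the creams was not called, and their effect cannot be called particular to imiquimod. Malat1 was at 1417, 1058 and 1246 in wild-type and 1267, 1196 and 1193 in NF-kB1-deficient sham libraries, a sham log2 fold change of -0.02 ± 0.18, and the interaction was 1.49 ± 0.25 (SE; adjusted p = 2.09e-05). For Tuba1b the sham values were 11.2, 9.52 and 8.07 against 21.3, 25 and 21.8 (1.17 ± 0.53), opposite in sign to imiquimod (interaction -3.29 ± 0.75, adjusted p = 0.011). Ncl likewise was at 39.7, 39.3 and 39.1 against 75.7, 70.1 and 74.2 under sham (0.88 ± 0.36; interaction -2.21 ± 0.51, adjusted p = 0.011). Btg1 was at 64.3, 42.7 and 36.6 against 32.3, 25.5 and 16.4 (-0.94 ± 0.60; interaction 3.59 ± 0.84, adjusted p = 0.0113). The number of interaction calls was 2 without wild-type imiquimod replicate 3 or NF-kB1-deficient sham replicate 3 and 12 without wild-type imiquimod replicate 2.

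**Figure D5:**
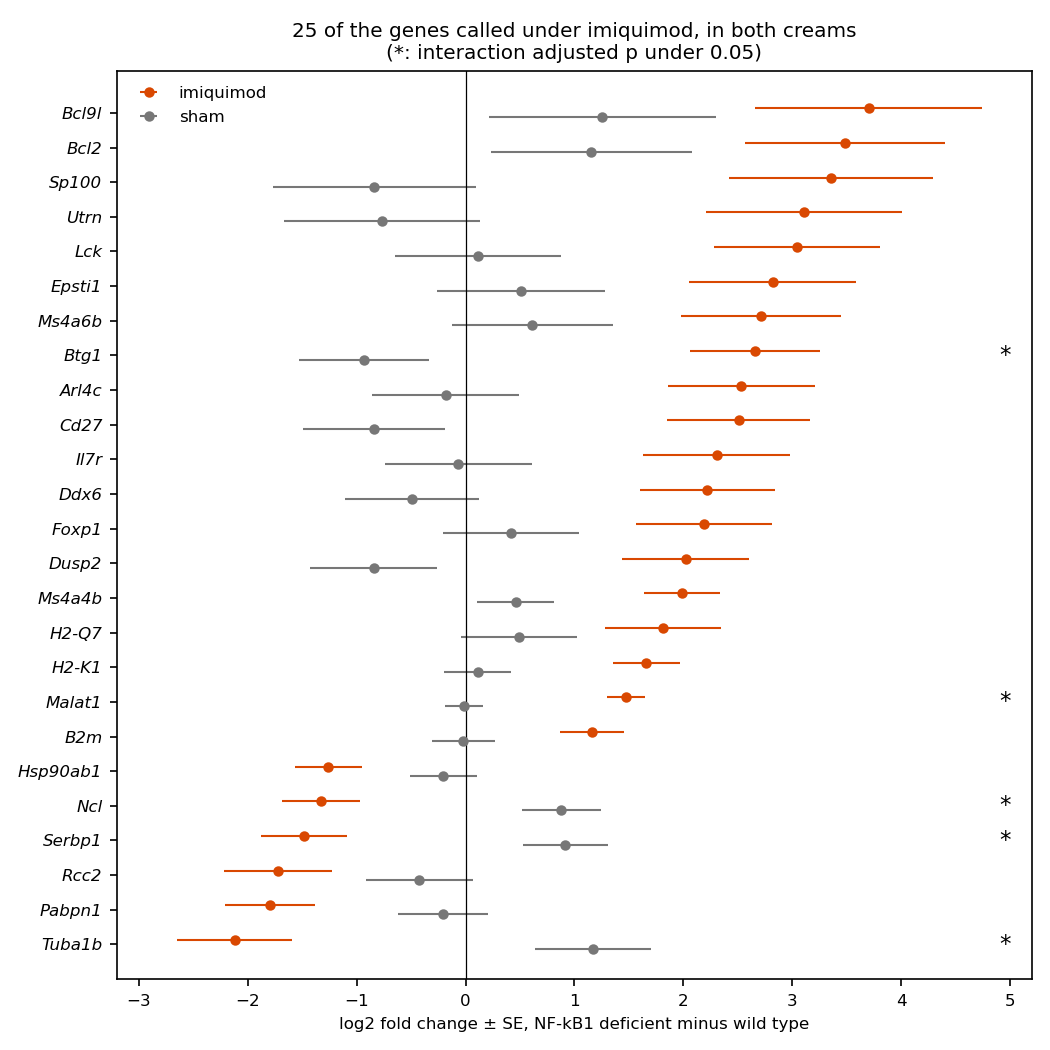
Log2 fold changes ± SE, NF-kB1 deficient minus wild type (x axis), of 25 called genes (y axis) under imiquimod (orange) and sham (grey); stars mark the 5 genes whose difference between creams was called. Under sham they lie between -0.94 and 1.26.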

How the data were processed

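The deposited table holds log2 normalized read counts per gene for 12 libraries as the authors deposited them; 3' tag libraries (QuantSeq FWD, Trizol RNA) were aligned to mm10, per the labels' protocols and the submitters' processing notes. For the aligner, the normalization and the counting program, a name is not given in the sources used here. Values were taken back to the linear scale, where a listed 0 was kept as 0. No linear value lies between 0 and 1, so in libraries where 1 read is worth less than 1 a listed 0 can hide 1 read. The value of 1 read and the depth (20507 to 69454 reads on genes) were estimated from the steps of low values. Under 20 reads only 71.0% to 80.3% of values came within 0.01 of a whole read, so no count test was run. Reads carry no molecular identifiers, so copies of 1 molecule are counted separately. Columns were matched to samples by title, 0 columns were unused, and 0 of 66 pairs of libraries were identical.

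Genes with a mean of at least 5 over the 12 libraries were tested on log2(value + 1), a scale that understates the change of low genes, with limma 3.58.1 in R 4.3.3 (eBayes with trend and robust; 8 residual and a median of 145 prior degrees of freedom) in 1 fit of 4 groups. P-values were adjusted by Benjamini-Hochberg over the 1571 genes, and genes were called at an adjusted p under 0.05. The test was tried on simulated counts with a dispersion of 0.230 and 1582 genes in the fit, where it called 4 of 1409 unchanged genes. The 41 gene lists (1374 of 1380 members with a line in the table) and the genes compared were chosen with earlier results of these data known, so lists are described by counts and medians without a test. Genes were named by rule: called genes with the largest changes, up to 4 called members of each list, in lists with under 2 calls the 2 members with the lowest p, the 10 most abundant genes and 20 genes of NF-kB, IL-17 and identity; other names are marked or belong to a list described in full. A few genes that the rule names are not reported here. Alternatives covered pseudocounts, filters, scalings, limma options, a replicate block and leaving out each library. Promoter windows come from RefSeq and were found for 1262 of the 1571 tested genes.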

Additional observations from a re-analysis of the deposited data

Results flagged for a closer look

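For 7 genes the genotype difference under imiquimod differed from that under sham cream by the interaction test of the same limma fit. The interaction, in log2 units and NF-kB1 deficient minus wild type, was 1.49 ± 0.25 (SE) for the noncoding RNA Malat1 (adjusted p = 2.09e-05), 3.59 ± 0.84 for the antiproliferative gene Btg1 (adjusted p = 0.0113) and 3.12 ± 0.78 for the splicing factor gene Rbm25 (adjusted p = 0.0214). It was -3.29 ± 0.75 for the alpha tubulin Tuba1b, -2.4 ± 0.56 for the mRNA-binding protein Serbp1 and -2.21 ± 0.51 for nucleolin, each with an adjusted p of 0.011, and -3.23 ± 0.78 for the actin-binding protein Tagln2 (adjusted p = 0.0137).

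Rbm25 and Tagln2 were not called under imiquimod alone. Rbm25 was at 54.2, 55.5 and 58.4 in wild-type against 13.2, 18.7 and 13.8 in NF-kB1-deficient sham libraries and at 17.9, 33.2 and 7.92 against 40.1, 44.4 and 44.6 under imiquimod, so its groups stood apart in opposite directions under the 2 creams. Tagln2 was at 24.6, 22 and 9.94 against 38.6, 43.8 and 78 under sham, without overlap, and at 28.3, 53.7 and 85.2 against 14.3, 13.3 and 15.6 under imiquimod. Serbp1 was at 32.4, 53.7 and 50.7 against 49.3, 94.7 and 131 under sham, with overlap, and at 103, 74.7 and 188 against 66.1, 26.5 and 35.7 under imiquimod. In the 12 fits without 1 library 2 to 12 interactions were called.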

How the results depend on the processing

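The test as reported called 28 genes under imiquimod (20 higher, 8 lower), 0 under sham and 7 for the interaction. A pseudocount of 0.1 gave 18 calls (12 higher), and one of 10 gave 11 higher and 17 lower. With a mean of at least 20, 14 genes were called lower and 13 for the interaction. With no filter 3 genes were called (3 higher, 0 lower) and 1 for the interaction. Equal library totals gave 5 lower, and the 6 imiquimod libraries alone gave 17 calls (5 higher), 12 of them among the 28. Without trend and robust, 0 genes were called in either direction or for the interaction, and trend without robust gave 5 lower. Without 1 library, limma called 4 to 42 genes under imiquimod, 4 to 33 higher and 0 to 10 lower, 0 to 1 under sham and 2 to 12 for the interaction; a group left with 2 libraries was assumed to vary like the others. Chosen after seeing the data, a floor at 1 read of the shallowest library gave 13 lower, and equal totals without that library gave 37 higher, 3 lower and 2 interactions. The cause of these shifts was not tested.

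Same-numbered libraries of the 2 imiquimod groups deviated together weakly if at all (r = 0.061, -0.001 and 0.038 over genes). Differently numbered ones gave r from -0.054 to 0.011. With 3 shallow libraries a group, these values cannot tell whether the numbers pair libraries, and the labels do not say. With a replicate block 32 genes were called (21 higher, 11 lower), among them all 28. With the block in the 6 imiquimod libraries alone 5 were higher and 16 lower, among them 13 of the 28.

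No called gene changed direction in any setting. Nfkb1 changed sign with a pseudocount of 10 (-0.14), without wild-type imiquimod replicate 3 (-0.96; 1.27 at the other end, without replicate 2), with the floor (-0.18) and with equal totals without the shallowest library (-0.81). The uncalled LOC100503946 turned to 0.017 with equal totals and 0.037 with equal totals without the shallowest library, where Rps9 turned to 0.089; without 1 library LOC100503946 ran from -0.54 to 0.0018. At 20507 to 67042 reads per imiquimod library, most genes under a mean of 20 rest on few reads, and depth limits what could be called among them.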

Other observations

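Apart from the called genes, 13 tested genes were listed at 0 in all 3 wild-type imiquimod libraries and above 0 in all 3 NF-kB1-deficient ones, and 3 genes showed the reverse. All 16 were chosen after their values were seen, and none was called. The wild-type imiquimod libraries were all the shallower, and 17.7% of their tested values were listed at 0 against 8.27% in the NF-kB1-deficient ones. The part of depth in the counts of 13 and 3 was not tested. Prkch, a protein kinase C of lymphocytes, was at 9.81, 8.35 and 20.1 in NF-kB1-deficient imiquimod libraries (adjusted p = 0.101) and at 8.94, 8.79 and 12.4 in wild-type sham libraries. Jund, an AP-1 subunit, was at 6.51, 17.8 and 14.9 (adjusted p = 0.101), and Mnt, a repressor that competes with Myc for Max, at 15.5, 9.08 and 7.14 (adjusted p = 0.147). In the reverse direction, Hells was at 41.9, 20 and 8.36 in wild-type imiquimod libraries and at 0, 0 and 1.24 in wild-type sham libraries. No fold is given for these genes.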
